A study of Homo sapiens with 4 samples.

Results

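Tubulin genes encode the subunits of microtubules. The group described here comprises 10 genes chosen by symbol: the alpha-tubulin genes TUBA1A, TUBA1B, TUBA1C and TUBA4A, the beta-tubulin genes TUBB, TUBB2A, TUBB3, TUBB4B and TUBB6, and the gamma-tubulin gene TUBG1. Of these 10, 9 were analysed among the 26830 genes of the table, and TUBB was not analysed here. The measurements come from RNA immunoprecipitation sequencing (RIP-seq) of U2OS cells, a human osteosarcoma line, that had been infected with a lentivirus for Flag-tagged QKI7 and selected for GFP. QKI7 is 1 of the splice forms of QKI, an RNA-binding protein. All libraries carry this transgene: 2 libraries are of RNA recovered with a Flag antibody after ultraviolet cross-linking and sonication (Flag-RIP), and 2 are of input RNA with no antibody. A precipitation from cells without the tagged protein was not analysed here, so recovery by QKI7 and recovery by the beads cannot be told apart. Since no label says that the replicates came from separate cultures, p-values reflect only how far these libraries differ, and that may be technical.

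Alpha- and beta-tubulin form the heterodimer that polymerises into microtubules, and gamma-tubulin sits in the ring complex from which microtubules grow. Vertebrates carry several isotype genes of each class, which differ mostly in their acidic C-terminal tails and in the tissues that use them. Cells also adjust the stability of alpha- and beta-tubulin mRNAs to the amount of free tubulin dimer, a process known as tubulin autoregulation.

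Values are TPM, a length-normalised share of each library, and the number of reads behind them is unknown. 7SL RNA took 39.8% to 43.4% of the TPM in Flag-RIP libraries and 79.7% to 84.6% in input libraries, and the ERCC spike-ins, which are synthetic RNAs, took 18.9% to 25.6% and 2.78% to 3.89%. The median ratio of mean TPM, Flag-RIP over input, was 3.32 over the 10415 genes tested (mean TPM of at least 1), and a tubulin mRNA is read below against that ratio and not against 1. The filter used the mean over all 4 libraries, so a gene under 1 TPM in input could pass through Flag-RIP alone. At least 1 TPM was reached by 6117 and 7803 genes in input and by 11970 and 12098 in Flag-RIP. How far such genes raise the median ratio, and so lower the position of the tubulin genes, was not tested. Of 8 markers of mesenchymal cells and osteosarcoma, VIM, SPARC, COL1A1 and RUNX2 reached 1 TPM in an input library, whereas COL1A2, ALPL, SP7 and BGLAP did not. The summed level of these 8 was 657 to 883 TPM in Flag-RIP and 230 to 314 TPM in input. Of 9 epithelial, blood and neural markers, KRT18 and KRT8 reached 1 TPM in an input, and EPCAM, CDH1, PTPRC, CD3E, HBB, SNAP25 and GFAP did not. Their sum was 100.1 to 109.6 TPM in Flag-RIP and 72.4 to 84.7 TPM in input.

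The 2 abundant alpha-tubulin mRNAs, TUBA1B and TUBA1C, had ratios of Flag-RIP to input TPM at or above that of the median gene, while those of TUBA1A, TUBB2A, TUBB4B and TUBG1 lay far below it. TUBA1B, the main alpha isotype of dividing cells, had 310 and 277 TPM in Flag-RIP, against 79.5 and 96.3 TPM in input. TUBA1C, a closely related alpha isotype, had 102 and 107 TPM in Flag-RIP, against 23.2 and 31.8 TPM in input. For both genes the Flag-RIP libraries lay well above the inputs, with ratios of means of 3.34 and 3.80. TUBA1A, the alpha isotype best known from developing neurons, had 11.5 and 9.27 TPM in Flag-RIP, against 7.34 and 8.53 TPM in input, a ratio of 1.31. TUBA4A, the remaining alpha isotype, had 0.49 and 0.84 TPM in Flag-RIP, against 0.31 and 0.42 TPM in input. It did not pass the filter on low values and was not tested.

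Among the beta-tubulin genes, TUBB4B, an isotype also found in cilia, was the most abundant of the 4 analysed. It had 50.3 and 57.0 TPM in Flag-RIP, against 39.7 and 51.2 TPM in input, and the groups overlapped. TUBB6, an isotype expressed in many tissues, had 20.8 and 17.6 TPM in Flag-RIP, against 7.02 and 9.21 TPM in input, with no overlap. TUBB3, the neuronal beta isotype that many tumour lines also express, had 11.3 and 15.6 TPM in Flag-RIP, against 5.76 and 9.53 TPM in input. TUBB2A had 8.30 and 5.68 TPM in Flag-RIP, against 4.93 and 6.34 TPM in input, and its second Flag-RIP library lay below the second input. The ratios of means were 1.18 for TUBB4B, 2.37 for TUBB6, 1.76 for TUBB3 and 1.24 for TUBB2A. TUBG1, which encodes the gamma-tubulin of the microtubule-organising centre, had 16.1 and 18.3 TPM in Flag-RIP, against 10.1 and 13.2 TPM in input, a ratio of 1.47. In plain TPM both Flag-RIP libraries lay above both inputs for 6 of the 8 tubulin genes that passed the filter, all but TUBB4B and TUBB2A, as they did for 96.7% of all tested genes.

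**Figure D1:**
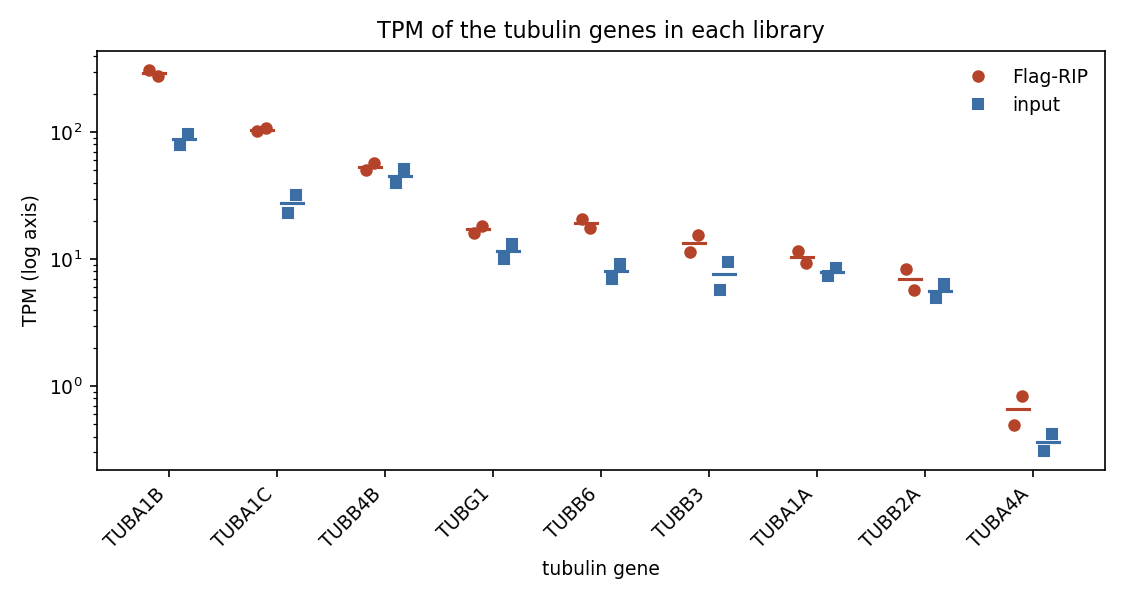
TPM (log axis) of the 9 tubulin genes in each library, with Flag-RIP as circles to the left, input as squares to the right, and a bar at each group mean (n = 2). TUBA1B and TUBA1C stand apart between the groups, while TUBB4B and TUBB2A overlap.

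In Flag-RIP the order of mean TPM was TUBA1B, TUBA1C, TUBB4B, TUBB6, TUBG1, TUBB3, TUBA1A, TUBB2A and TUBA4A. The libraries of neighbours in this order overlapped for TUBB6 with TUBG1 and for TUBB3 with TUBA1A, and no other neighbours overlapped. In input the order was TUBA1B, TUBB4B, TUBA1C, TUBG1, TUBB6, TUBA1A, TUBB3, TUBB2A and TUBA4A. There TUBB6 overlapped TUBA1A, TUBA1A overlapped TUBB3, and TUBB3 overlapped TUBB2A. TUBA1C thus had 105 ± 3.71 TPM in Flag-RIP, above TUBB4B with 53.6 ± 4.76 TPM, whereas in input TUBA1C had 27.5 ± 6.06 TPM and TUBB4B 45.5 ± 8.17 TPM (SD, n = 2 each).

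The position of each tubulin gene among all tested genes is shown by the ratio of mean TPM. TUBA1C had a higher ratio than 61.5% of the tested genes and TUBA1B than 50.6%. TUBB6 exceeded 23.6% and TUBB3 9.39%. TUBG1 exceeded 5.21%, TUBA1A 3.40%, TUBB2A 2.83% and TUBB4B 2.35%. On the centred log2(TPM + 1) scale used for the calls below, TUBA1C exceeded 90.7% of the tested genes, TUBA1B 85.0% and TUBB6 45.4%, while TUBB4B exceeded 2.72%. The 1 TPM added before the log shrinks the changes of low genes and with them the median shift. Abundant genes such as TUBA1B and TUBA1C therefore stand higher on this scale than by ratio. With 0.1 TPM added instead, the centred change was 0.02 for TUBA1B and 0.22 for TUBA1C, and neither was called. The ratio of all genes also depended on abundance. Among the 121 tested genes with a mean TPM of 100 to 1000, where TUBA1B lies, the median ratio was 1.37 with quartiles of 0.927 and 2.01. TUBA1B lay above these quartiles. The bins use the mean over all 4 libraries, so the Flag-RIP values behind a ratio also set the bin of a gene. By its input mean alone, 87.9 TPM, TUBA1B would fall below 100. Among the 611 genes between 20 and 100, the median was 2.30 with quartiles of 1.63 and 3.38. TUBA1C lay above them and TUBB4B below, while the ratio of TUBA1B, 3.34, would lie just under the upper quartile here. Among the 3252 genes between 5 and 20, the median was 2.97 with quartiles of 2.21 and 4.13. TUBA1A, TUBB2A, TUBB3 and TUBG1 lay below them, and TUBB6 lay between the lower quartile and the median.

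For the test, libraries were shifted to a common median on the log2(TPM + 1) scale, and changes on this scale are called centred changes. A gene was called where the limma adjusted p was under 0.05. Of the 8 tested tubulin genes, 5 were called lower, against 24.4% of all tested genes, and 1 was called higher, against 16.4%. The median centred change of the 8 was -0.67, beside -0.11 over all tested genes. TUBB4B changed by -1.08 (SE 0.18, limma adjusted p = 0.0038). TUBB2A had -1.06 (SE 0.15, limma adjusted p = 0.0024), and TUBA1A had -0.97 (SE 0.14, limma adjusted p = 0.0024). TUBG1 had -0.79 (SE 0.14, limma adjusted p = 0.0054). After the shift both Flag-RIP libraries lay below both inputs for these 4 genes, TUBB3 and TUBB6, as for 47.3% of all tested genes, and above both inputs for TUBA1B and TUBA1C, as for 29.4%. With no filter on low values, where the library medians include many low genes, none of the lower calls of tested members remained (-0.52 for TUBB4B, -0.50 for TUBB2A, -0.41 for TUBA1A, -0.23 for TUBG1 and -7.1e-04 for TUBB3), and with a pseudocount of 5 those of TUBB4B (-0.44), TUBG1 (-0.25) and TUBB3 (-0.12) were lost.

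The remaining centred changes were smaller. TUBB3 was called lower at -0.56 (SE 0.19, limma adjusted p = 0.045), and the call was lost without input replicate 1 (-0.68, limma adjusted p = 0.13), input replicate 2 (-0.44, 0.23) or Flag-RIP replicate 1 (-0.31, 0.15), and in 8 of the 14 alternatives in all. TUBA1C was called higher at 0.59 (SE 0.17, limma adjusted p = 0.029), and this call did not survive the loss of any single library (0.51 to 0.66). The size of its change followed the pseudocount, at 0.22 with 0.1 (not called, limma adjusted p = 0.30) and 1.10 with 5. TUBA1B had 0.02 and 1.02 with these pseudocounts, the latter called higher. TUBA1B, at 0.41 with an interval of -0.04 to 0.87 (limma adjusted p = 0.13), and TUBB6, at -0.16 with an interval of -0.47 to 0.15 (limma adjusted p = 0.35), were not called. With libraries scaled to the spike-ins, TUBA1B had -0.99 (limma adjusted p = 0.027) and TUBA1C -0.78 (limma adjusted p = 0.063), and every other tested tubulin gene was called lower. The call of TUBG1 was lost without input replicate 1 (-0.77, limma adjusted p = 0.065).

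On the deposited TPM scale, with no shift of libraries, 4 of the 8 tubulin genes were called higher and 0 lower, against 92.3% and 0.317% of all tested genes. TUBA1C had a change of 1.90 (SE 0.32, limma adjusted p = 1.2e-08) and TUBA1B of 1.73 (SE 0.28, limma adjusted p = 6.8e-09). TUBB6 had 1.16 (SE 0.33, limma adjusted p = 5.3e-04) and TUBB3 0.76 (SE 0.32, limma adjusted p = 0.021). TUBG1, TUBA1A, TUBB2A and TUBB4B had changes of 0.53, 0.35, 0.26 and 0.24, and none of these was called (limma adjusted p of 0.11, 0.29, 0.42 and 0.45). The median of the 8 was 0.64, beside 1.205 over all tested genes. Only TUBA1B and TUBA1C stayed called when Flag-RIP replicate 1 was left out, and likewise without Flag-RIP replicate 2.

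A comparison among the tubulin genes themselves needs no scaling to other RNAs. Libraries were shifted to a common mean of the 8 tested tubulin genes, so that a change shows where a gene stood relative to its family. On this scale TUBA1C was higher by 1.04 (SE 0.17, limma adjusted p = 0.0025) and TUBA1B by 0.87 (SE 0.19, limma adjusted p = 0.0082), against 47.7% of all tested genes called higher. TUBB4B, TUBB2A and TUBA1A were lower, with changes of -0.62 (SE 0.17, limma adjusted p = 0.020), -0.61 (SE 0.16, limma adjusted p = 0.016) and -0.52 (SE 0.14, limma adjusted p = 0.019), against 5.13% of all tested genes called lower. TUBG1 at -0.34, TUBB3 at -0.11 and TUBB6 at 0.29 were not called (limma adjusted p of 0.084, 0.66 and 0.11). The call of TUBA1C held in all 14 alternatives tried and that of TUBA1B in 13, the exception being without Flag-RIP replicate 1 (0.80, limma adjusted p = 0.085). None of the 3 lower calls remained without input replicate 1 or without input replicate 2, and without Flag-RIP replicate 2 only that of TUBB2A did. The call of TUBB4B was also lost without Flag-RIP replicate 1 (-0.52, limma adjusted p = 0.21). Since each gene is part of the mean it is set against, these differences are slightly understated. The 8 changes average 0 by construction, so changes in both directions were fixed in advance. The median change of all tested genes was 0.34 on this scale, so the shares of 47.7% and 5.13% are no measure for the counts of members called.

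**Figure D2:**
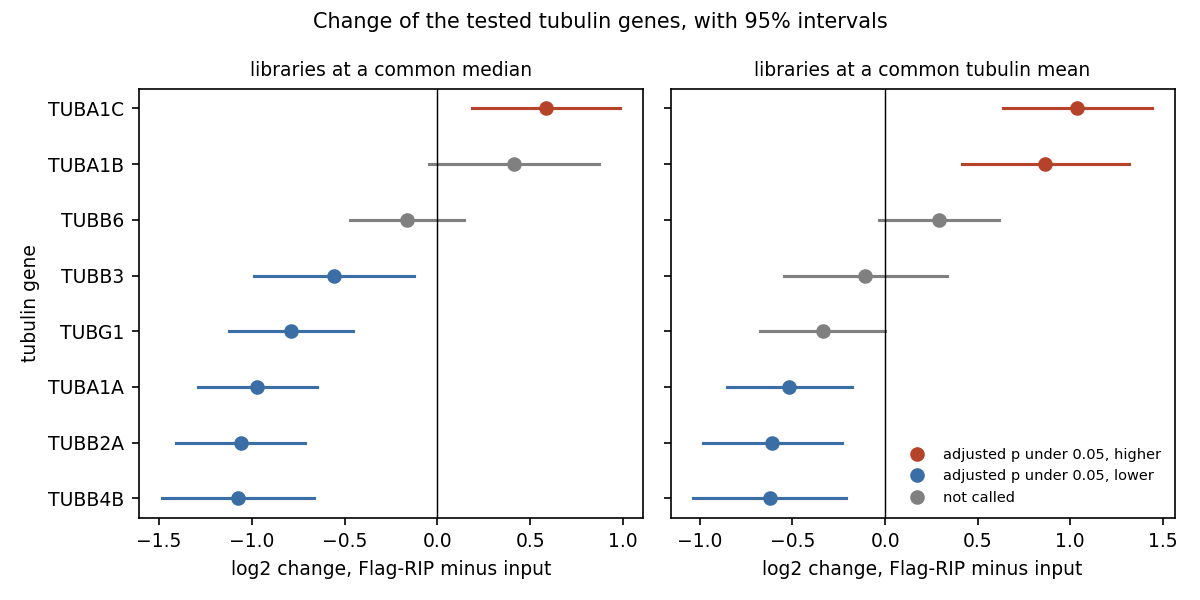
Log2 change, Flag-RIP minus input, of the 8 tested tubulin genes with 95% intervals from limma, with libraries at a common median (left) and at a common tubulin mean (right). Red marks genes called higher, blue lower and grey not called; TUBA1C and TUBA1B head both panels, and TUBB4B, TUBB2A and TUBA1A are lowest in both.

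Differences between the classes were also seen in sums of TPM, which depend less on how reads were divided among the genes summed. Since TPM is length-normalised, that division still matters where the summed genes differ in length. The sums can also depend on the division with genes outside them, such as TUBB2B, TUBB4A and TUBA3C. The 4 alpha-tubulin genes summed to 424 and 394 TPM in Flag-RIP, against 110.4 and 137 TPM in input. The 4 beta-tubulin genes summed to 90.7 and 95.8 TPM in Flag-RIP, against 57.4 and 76.3 TPM in input, with TUBB outside this sum. The ratio of alpha to beta TPM was 4.67 and 4.11 in Flag-RIP, against 1.92 and 1.80 in input. The groups did not overlap, with an exact permutation p of 0.333, the smallest that 2 against 2 libraries can give. In the centred fit the beta sum was lower by -0.83 (SE 0.18, limma adjusted p = 0.010) and the alpha sum was not called at 0.41 (SE 0.20, limma adjusted p = 0.14). The beta call was lost without input replicate 1 or Flag-RIP replicate 1 (limma adjusted p of 0.062 each), and with the spike-in scaling the alpha sum was lower by -1.01 (limma adjusted p = 0.026). All 9 genes together summed to 519 ± 15.9 TPM in Flag-RIP and 202 ± 34.4 TPM in input (SD, n = 2 each), a ratio of 2.57 that lies below the median ratio of 3.32.

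Within the alpha class the share of TUBA1A was smaller in Flag-RIP. It made up 2.72% and 2.35% of alpha TPM in Flag-RIP, against 6.65% and 6.22% in input. The ratio of TUBA1B to TUBA1A was 26.9 and 29.9 in Flag-RIP, against 10.8 and 11.3 in input. TUBA1B itself kept a similar share, with 73.1% and 70.2% in Flag-RIP against 72.0% and 70.3% in input, and the groups overlapped. TUBA1C took 24.1% and 27.2% in Flag-RIP, against 21.0% and 23.2% in input. These 3 genes lie side by side on chromosome 12 of GRCh38 and are highly alike in their coding sequence, so how reads were split between them is uncertain.

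Within the beta class TUBB6 had a larger and TUBB4B a smaller share in Flag-RIP. TUBB6 made up 23.0% and 18.4% of the summed beta TPM in Flag-RIP, against 12.2% and 12.1% in input. TUBB4B made up 55.4% and 59.5% in Flag-RIP, against 69.1% and 67.1% in input. Neither pair of groups overlapped. TUBB3 took 12.5% and 16.2% in Flag-RIP, against 10.0% and 12.5% in input, and TUBB2A 9.15% and 5.93% in Flag-RIP, against 8.59% and 8.31% in input. Of the 8 isotype shares, those of TUBA1A, TUBA1C, TUBA4A, TUBB4B and TUBB6 did not overlap between groups. Each had an exact permutation p of 0.333, so none could pass a threshold of 0.05. Random labelling of the libraries would separate any given share with that same probability of 0.333. Shares within a class are parts of the same sum, so the rise of TUBB6 and the fall of TUBB4B are not separate observations. The number of shares without overlap was therefore not tested.

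**Figure D3:**
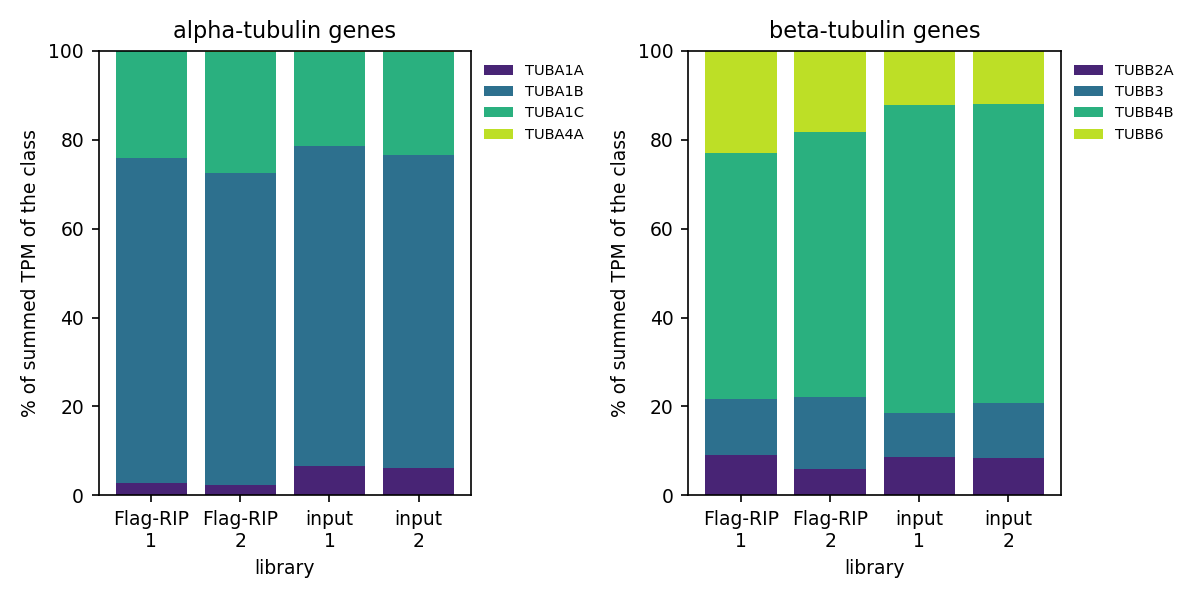
Share of each gene in the summed TPM of the 4 alpha-tubulin genes (left) and of the 4 beta-tubulin genes (right) in each library, in percent. TUBA1A is smaller in both Flag-RIP libraries, and TUBB6 is larger and TUBB4B smaller there.

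In GRCh38.p14, TUBA1B lies on chromosome 12 from 49127782 to 49131395, TUBA1A from 49184795 to 49189080 and TUBA1C from 49227926 to 49274600. TUBA4A lies on chromosome 2 from 219249710 to 219254740 and TUBB2A on chromosome 6 from 3153666 to 3157544. TUBB4B lies on chromosome 9 from 137241287 to 137243707, TUBB3 on chromosome 16 from 89921925 to 89936097, TUBG1 on chromosome 17 from 42609683 to 42615238 and TUBB6 on chromosome 18 from 12307669 to 12329826. TUBB6 overlaps AFG3L2 in this annotation, which had 12.24 and 12.03 TPM in Flag-RIP and 4.30 and 6.40 TPM in input, and whether counting used the strand is not stated in the sources used here. TUBA4A overlaps STK16, at 2.61 and 2.89 TPM in Flag-RIP and 1.24 and 1.46 TPM in input. The table gives 1 value per gene over its exons, so the stretch of a tubulin mRNA that was recovered is not known.

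The genes whose libraries followed the same pattern most closely were sought for the tubulin genes at both ends of the centred changes, by Euclidean distance of centred log2 values over the 4 libraries. For TUBA1C these were BDP1, L3HYPDH and SLC6A16, at distances of 0.036, 0.037 and 0.039, and 49 tested genes lay within 0.1 of it. For TUBB4B they were ORAI1, ZDHHC24 and MRPS18B, at 0.014, 0.029 and 0.046, and 14 genes lay within 0.1. With 4 libraries such closeness is a description only.

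Other tubulin genes, outside the group, varied as widely. Of 13, 6 were tested, with a median centred change of -0.38. Of these, 1 was called higher and 2 lower, near the 16.4% and 24.4% of all tested genes. TUBB4A, a beta isotype best known from brain, had 9.19 and 7.26 TPM in Flag-RIP, against 0.93 and 1.32 TPM in input, and rose by 0.80 after centring (SE 0.12, limma adjusted p = 0.0025). Its ratio of means was 7.31, against 1.18 for TUBB4B, but the genes differ in abundance, with input means of 1.125 and 45.5 TPM. The median ratio was 3.60 among tested genes with a mean TPM of 1 to 5 and 2.30 among those of 20 to 100. TUBA3C, an alpha isotype best known from testis, had 17.8 and 19.2 TPM in Flag-RIP, against 14.8 and 18.2 TPM in input, and was lower by -1.15 (SE 0.15, limma adjusted p = 0.0018). TUBB2B, which was chosen for mention after its value was seen, had 18.7 and 22.6 TPM in Flag-RIP, against 11.6 and 15.3 TPM in input, and was lower by -0.72 (SE 0.16, limma adjusted p = 0.010). TUBA3C and TUBA3D, like TUBB2A and TUBB2B, are near-identical pairs, and the split of reads within each pair is uncertain. TUBG2, the second gamma-tubulin gene and likewise chosen after its value was seen, had 4.53 and 3.28 TPM in Flag-RIP, against 0.68 and 0.92 TPM in input, and was not called (0.12, limma adjusted p = 0.51).

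Genes that fold tubulin went both ways. Nascent tubulin passes from prefoldin to the CCT chaperonin, and the cofactors TBCA to TBCE then assemble the dimer, with ARL2 as a regulatory GTPase. Of 8 CCT subunit genes, 5 were called lower and 0 higher, beside 24.4% and 16.4% of all tested genes, with a median centred change of -0.54. CCT7 had -0.78 (SE 0.19, limma adjusted p = 0.016) and CCT5 -0.65 (SE 0.16, limma adjusted p = 0.016). Of 5 tested prefoldin genes, 2 were higher and 1 lower. PFDN6 had 43.1 and 37.1 TPM in Flag-RIP, against 3.68 and 3.70 TPM in input, which is 1.81 after centring (SE 0.16, limma adjusted p = 6.5e-04), and PFDN5 had -0.95 (SE 0.19, limma adjusted p = 0.0073). Of 6 cofactor genes, 2 were higher and 1 lower, with ARL2 at 0.62 (SE 0.17, limma adjusted p = 0.025) and TBCC at -0.49 (SE 0.12, limma adjusted p = 0.014).

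Partners of gamma-tubulin went both ways. Of 7 tested genes of the gamma-tubulin ring complex, 4 were called lower and 1 higher, beside 24.4% and 16.4% of all tested genes, with a median of -0.37. MZT2B, a small ring complex subunit, had 68.7 and 68.2 TPM in Flag-RIP, against 47.8 and 50.9 TPM in input, and was lower by -0.85 (SE 0.19, limma adjusted p = 0.010). TUBGCP6, a large ring complex subunit, had 15.1 and 14.3 TPM in Flag-RIP, against 1.40 and 2.74 TPM in input, and was higher by 1.07 (SE 0.12, limma adjusted p = 0.0013). Of 4 genes of tubulin autoregulation, 2 were lower and 0 higher, too few to set against these shares. They were TTC5, which reads the nascent tubulin chain at the ribosome, at -0.40 (SE 0.10, limma adjusted p = 0.015), and CNOT11, a subunit of the CCR4-NOT deadenylase, at -0.32 (SE 0.10, limma adjusted p = 0.036).

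Of 11 tested genes of enzymes that modify tubulin, 3 were called higher and 0 lower, beside 16.4% and 24.4% of all tested genes, with a median of -0.08. TTLL3, a tubulin glycylase, had 7.02 and 6.66 TPM in Flag-RIP, against 0.44 and 1.42 TPM in input, and changed by 0.75 (SE 0.13, limma adjusted p = 0.0045). Its input mean of 0.93 TPM lay below the filter, so it was tested only through its Flag-RIP values, which favours a higher call. TTL, the tubulin tyrosine ligase, changed by 0.61 (SE 0.17, limma adjusted p = 0.023). Of 16 tested genes of microtubule-associated proteins, 3 were higher and 1 lower, so that the higher count was near the share of all genes, with a median of 0.20. MAPRE1, which encodes the plus-end protein EB1, had 0.62 (SE 0.13, limma adjusted p = 0.0095) and MAP1S -0.52 (SE 0.12, limma adjusted p = 0.012). Of the 8 lists, those for microtubule-associated proteins and prefoldin had medians above 0 and the other 6 below it, beside the median of -0.11 over all tested genes. Over the 8 lists, 12 of the 63 tested genes were called higher and 16 lower, both near the 16.4% and 24.4% of all tested genes. Fewer were called when either input library was left out.

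**Figure D4:**
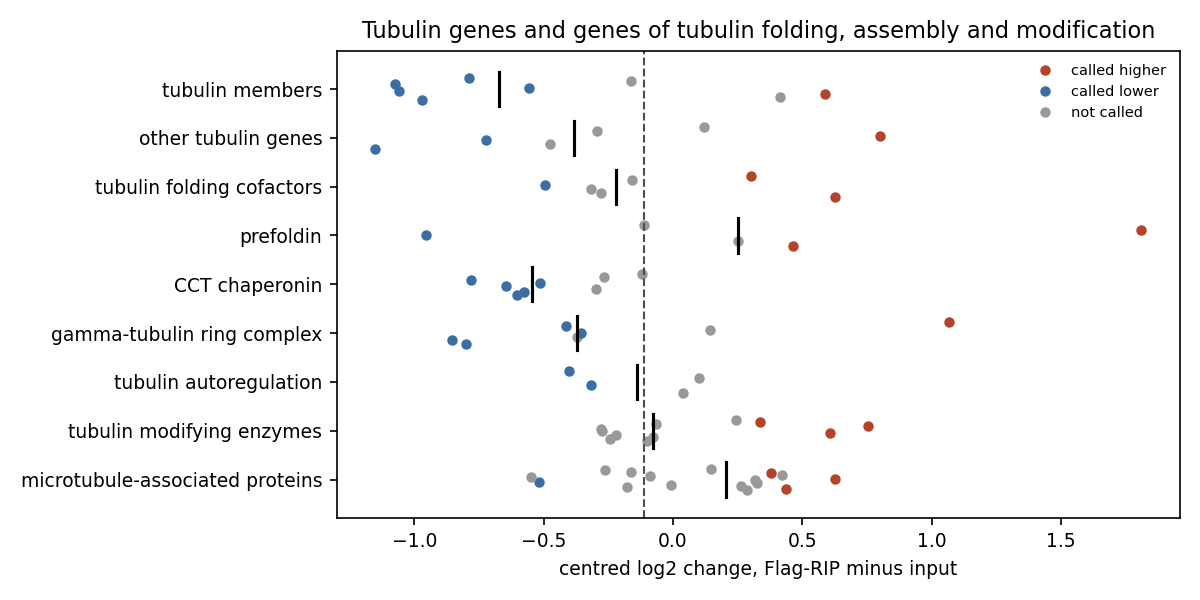
Centred log2 change, Flag-RIP minus input, of each tested gene in the tubulin group and in 8 lists of related genes, with a black bar at each list's median and a dashed line at the median of all tested genes (-0.11). The tubulin group and the CCT chaperonin genes have the lowest medians, -0.67 and -0.54.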

How the data were processed

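The authors deposited TPM values in 1 table with a column for each library. The submitters' processing notes name STAR, RSEM version 1.2.31 and GRCh38. Annotation, filters and strandedness of the counting were not stated in the sources used here. TPM keeps no depth, so no counting interval is given. The 92 ERCC rows stayed in the TPM total and out of the tests.

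limma (3.58.1, with R 4.3.3) was run on log2(TPM + 1) with lmFit and eBayes, the prior variance following a trend with the mean. Tests were two-sided over the 10415 genes whose mean TPM reached 1, Benjamini-Hochberg adjusted, with a threshold of 0.05. Fold changes of low genes are understated on that scale. There were 2 residual degrees of freedom. The prior had 5.72 degrees of freedom in the centred fit and 5.13 in the tubulin-relative fit. It was infinite as deposited, so that variances there are those of the trend alone. Medians of Flag-RIP and input libraries were 1.32 log2 units apart. Class sums replaced their members in the centred fit. Shares were compared with exact permutation tests, two-sided.

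The tubulin genes and the gene lists were chosen with earlier results of these data known. Named genes were all members, 2 genes of each list (largest called centred change, otherwise highest mean TPM) and 3 nearest genes for the members with the highest and lowest change. Coordinates are from RefSeq, GRCh38.p14. TUBGCP5 and ATAT1, of the lists, were not analysed here. Data were simulated around the means of the 10415 genes, with the spread of the centred fit, in 10 runs with 200 changed genes. There 80.6% of 2-fold and 92.7% of 4-fold changes were recovered and 5.85% of calls were false. The simulation gave both groups the same spread, while the replicate SD was 0.25 in Flag-RIP and 0.14 in input. Far more genes were called in the data than were changed there, so these rates may not hold for the data. Alternatives were pseudocounts of 0.1 and 5, no filter, a mean TPM of at least 5, quantile normalization, spike-in scaling, leaving out the 20 most abundant rows, no variance trend, robust eBayes, the replicate block and each library left out.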

Additional observations from a re-analysis of the deposited data

How the results depend on the processing

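The tubulin-relative changes kept their direction in all 14 alternatives for every tested gene but TUBB3, which was never called. A mean TPM of at least 5, no variance trend, robust eBayes and the replicate block leave these changes as they are, so they do not test direction. The shift to the tubulin mean also removes most of a library scaling. The lower calls on that scale were lost more often than the centred ones, in 5 alternatives against 2 for TUBB4B, 3 against 1 for TUBA1A and 2 against 1 for TUBB2A. Called higher after centring were 0 tubulin genes with a pseudocount of 0.1 and with the replicate block, and 2 with a pseudocount of 5, no filter and no variance trend. Called lower were 2 with a pseudocount of 5, and only TUBA4A, tested there alone, without the filter. Quantile normalization, spike-in scaling and leaving out the 20 most abundant rows each took the place of the median shift. Each is therefore 1 fit, set against both the centred result (1 higher, 5 lower) and the deposited one (4 higher, 0 lower). In these fits 2 were higher and 4 lower with quantile normalization, likewise 2 and 4 without the 20 most abundant rows, and 0 and 7 with spike-in scaling. Leaving out 1 library gave 0 higher and 3 to 5 lower after centring, 2 to 5 higher as deposited, and 1 to 2 higher and 0 to 2 lower relative to the tubulin mean.

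The summed TUBA1A, TUBA1B and TUBA1C, and the sum of all alpha genes, were called higher with a pseudocount of 5 (1.03 and 1.02), no filter (0.97 each), quantile normalization (1.08 and 1.10), the 20 most abundant rows left out (0.50 each) and no variance trend (0.41 each), and lower with spike-in scaling (-1.004 and -1.006). TUBA1B and TUBA1C themselves had -0.99 and -0.78 there. The beta sum was not called with a pseudocount of 5 (-0.20), no filter (-0.27) or quantile normalization (-0.47), and ranged from -0.91 to -0.75 with 1 library left out. Over the related lists, 7 genes were higher with a pseudocount of 0.1, 21 with 5, 29 with no filter, 0 with spike-in scaling (44 lower) and 22 without the 20 most abundant rows (6 lower). They were 3 to 12 higher and 1 to 18 lower with 1 library left out. Where a setting tests fewer samples or more genes the construction differs; otherwise the cause was not tested.

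Deviations of same-numbered libraries correlated at -0.067 over 10415 genes. Paired libraries can also vary independently, so this value cannot decide whether the numbers mark pairs. With the replicate block 0 tubulin genes were higher and 5 lower after centring, TUBA1C having 0.59 (limma adjusted p = 0.064). The tubulin-relative change of TUBB4B had a limma adjusted p of 0.061 there.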
